A study of Mus musculus with 14 samples.

Results

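The collagen chains are the genes whose symbols read Col, a type number, a and a chain number. Both deposited count tables held 44 such symbols among 35976 gene symbols, and the 40 with 10 or more counts in at least 3 of the 14 libraries were taken as members. They comprised 11 fibrillar chains, 9 FACITs (fibril-associated collagens with interrupted triple helices), 6 basement membrane chains, 4 beaded filament chains, 3 transmembrane chains, 2 network chains, 2 multiplexins and 3 others (Col7a1, Col26a1 and Col28a1). The 4 symbols below the rule were Col6a5, with at most 2 counts in any library, and Col10a1, Col17a1 and Col6a4, whose highest counts were 13, 16 and 19. Among the members closest to the rule, Col6a6 and Col24a1 reached 10 counts in 5 libraries each, with maxima of 28 and 32 counts.

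Collagens are the main fibrous proteins of the extracellular matrix, and each molecule is a triple helix of chains that may come from one gene or from several. Fibrillar chains build the banded fibrils, FACITs decorate their surface, type IV chains form the sheet of basement membranes, and the transmembrane collagens span the plasma membrane and can be shed. In the cochlea, collagens II, IX and XI are known as components of the collagen fibrils of the tectorial membrane, and mutations in several of these chains and in type IV chains are known causes of hearing loss.

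The libraries were bulk RNA-seq of supporting cells (SCs), the cells that surround the sensory hair cells, sorted for EGFP from cochlear explants of Lfng-EGFP mice (strain B6;FVB-Tg(Lfng-EGFP)HM340Gsat/Mmucd), whose transgene marks SCs through Lfng regulatory sequence. Explants of age P0 (dissected at P0 to P1) or P6 were cultured for 24 hours with 2 μM CompE (compound E, a γ-secretase inhibitor that blocks Notch signaling) or with DMSO, its solvent. All animals carried the reporter, cochleae were pooled before the sort, and P0 had 4 libraries and P6 had 3 libraries of each treatment. The comparisons asked which chains differ when Notch is blocked at each age and which differ between ages.

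Library totals ran from 19415066 to 44430063 counts. Levels are given as RPM (a count scaled to the total of its library) or, where genes are compared with each other, as RPKM (RPM per kilobase of annotated exons). The floor that a count of 0 allows, 3 counts, was 0.0675 to 0.154 RPM and covers counting error only. Of the genes that mark SCs, the 8 listed summed to 5503 to 6387 RPM in the P0 CompE group, 6064 to 11160 in P0 DMSO, 2390 to 4895 in P6 CompE and 3523 to 7400 in P6 DMSO, and none of the 8 was at 0 in a whole group. They were Sox2, Prox1, Fgfr3, Lfng, Fabp7, Jag1, S100a1 and Rorb, and the authors count Lfng among the targets of Notch. The 8 hair cell genes summed to 542 to 1102 RPM in P0 DMSO, 1049 to 1626 in P0 CompE, 375 to 1001 in P6 DMSO and 513 to 1147 in P6 CompE. The 6 mesenchyme and fibrocyte genes summed to 893 to 1062 RPM in P0 DMSO, 1148 to 1325 in P0 CompE, 883 to 3845 in P6 DMSO and 1167 to 3186 in P6 CompE, mostly through Lum and Dcn. Over all 14 libraries, 5 glial genes summed to 319 to 530 RPM, 10 cartilage and bone genes to 9.14 to 87.8, 5 endothelial genes to 0 to 13.0, 6 macrophage genes to 0.776 to 89.7 and 4 genes of the stria vascularis to 1.46 to 14.8. In such bulk samples, fewer cells of a type and less RNA per cell cannot be told apart.

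Collagen transcripts of these SCs were mostly those of types II, IX and XI. The 40 chains held 1.17% ± 0.201 (SD, n = 4) of all counts in P0 DMSO, 1.17% ± 0.107 (n = 4) in P0 CompE, 0.800% ± 0.137 (n = 3) in P6 DMSO and 0.663% ± 0.119 (n = 3) in P6 CompE. Chains of types II, IX and XI made up between 82.2% and 89.2% of these collagen reads in every library. Col2a1, the sole chain of type II collagen, held 47.4% of the collagen reads and ranked 7 among all genes by mean RPM. Its partners of the same fibrils ranked 39 (Col9a2), 128 (Col11a2), 155 (Col9a1), 167 (Col9a3) and 274 (Col11a1).

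By mean RPKM over the 14 libraries, the order began with Col2a1 at 504, Col9a2 at 455, Col9a3 at 158, Col9a1 at 125 and Col11a2 at 103. It went on with Col18a1 at 68.6, Col11a1 at 34.9, Col4a1 at 30.6, Col4a5 at 21.2, then Col4a2, Col13a1 at 9.49 and Col3a1 at 5.75. These 12 chains stood first also with lengths taken from the longest transcript. The lowest members, Col24a1, Col6a6, Col19a1 and Col28a1, had mean RPKM of 0.0310, 0.0310, 0.0436 and 0.0608.

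**Figure D1:**
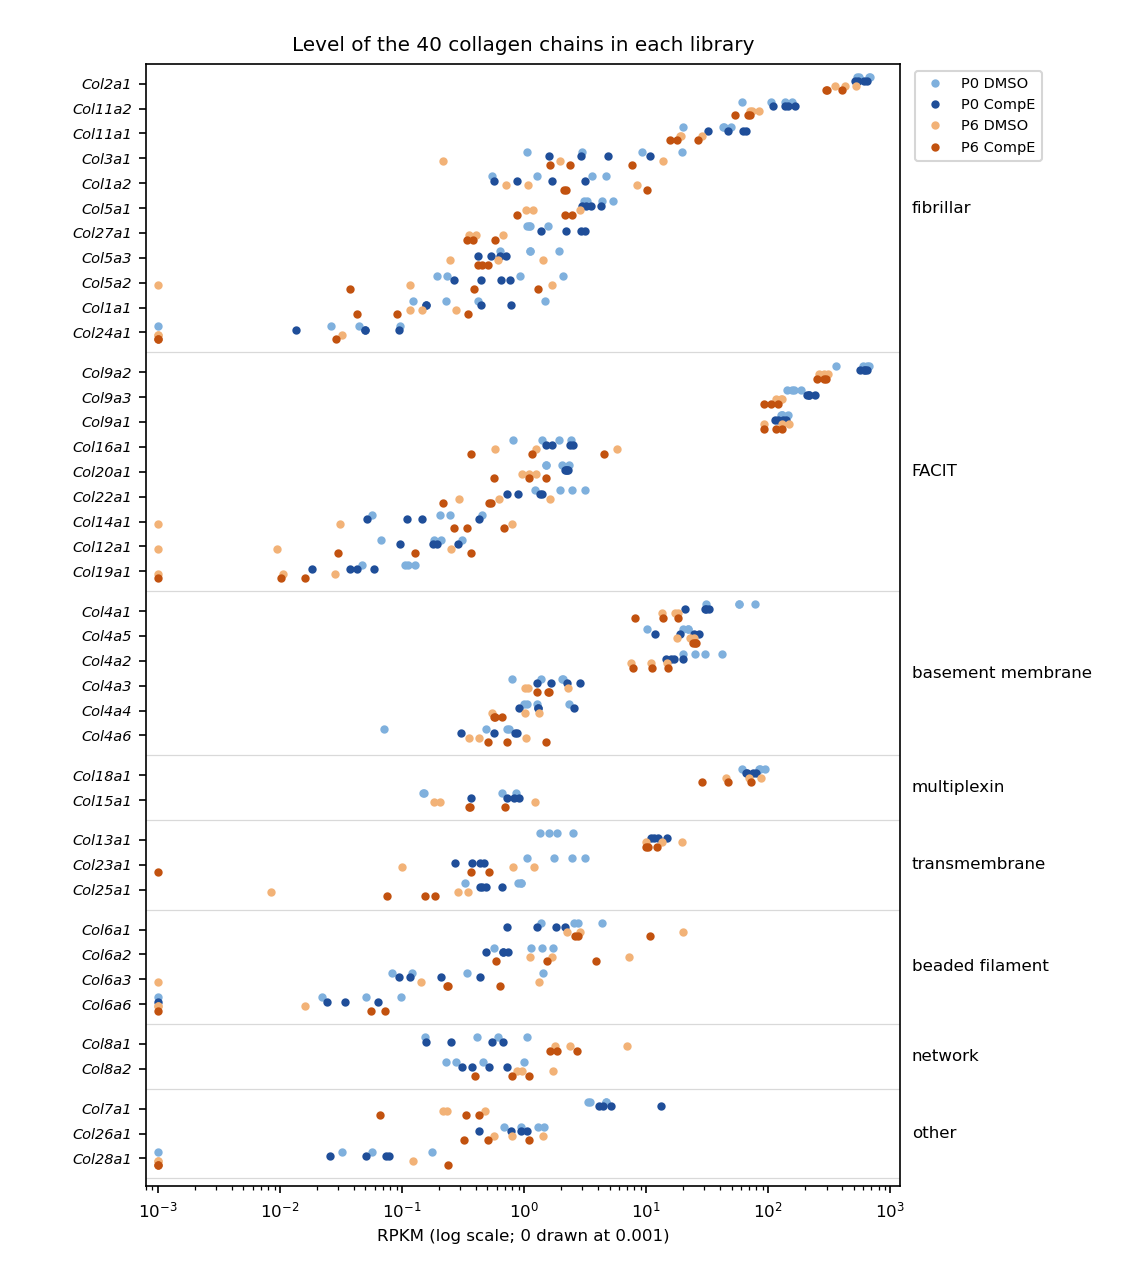
RPKM of each of the 40 collagen chains in each of the 14 libraries on a log axis, with the chains grouped by class and coloured by age and treatment, and a value of 0 drawn at 0.001. Col2a1, Col9a2, Col9a3, Col9a1 and Col11a2 have the highest mean RPKM, and 9 chains have 0 counts in at least 1 library.

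Col2a1 gave 4927, 5121, 6333 and 6197 RPM in replicates 1 to 4 of P0 DMSO and 4770, 5640, 5931 and 5055 in P0 CompE. At P6 it gave 3924, 3279 and 4823 RPM in DMSO and 2790, 2764 and 3696 in CompE. The treatments overlapped at both ages, and every P6 library lay below the P0 libraries of the same treatment. Of the 10 cartilage and bone genes, Lect1 and Matn1 carried most of the sum at P0, with 11.6 to 48.0 and 3.28 to 9.86 RPM in P0 DMSO and 36.4 to 60.95 and 21.6 to 50.5 RPM in P0 CompE. At P6, Lect1 was at 6.59 to 50.1 RPM and Matn1 at 0.0720 to 0.995. Aggrecan (Acan) and link protein (Hapln1), which cartilage also makes with type II collagen, reached at most 1.12 and 0.0986 RPM at P0 and 5.87 and 0.438 RPM at P6. The part of such cells in the Col2a1 value was not tested.

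Col11a2, a chain of the type XI fibril core, gave 416, 725, 1082 and 949 RPM in P0 DMSO and 745, 1005, 1128 and 941 in P0 CompE. At P6 it gave 489, 502 and 582 RPM in DMSO and 370, 473 and 488 in CompE. All 3 P6 CompE libraries were thus below all 3 of P6 DMSO, by a small margin. Chains of one collagen type were not at equal levels per length. The Col11a1 to Col11a2 ratio of RPKM was 0.340 ± 0.0422 (SD, n = 4) in P0 DMSO, 0.365 ± 0.0568 (n = 4) in P0 CompE, 0.291 ± 0.0443 (n = 3) in P6 DMSO and 0.311 ± 0.0764 (n = 3) in P6 CompE.

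Type IX collagen, which coats the type II fibril, has a chain each from Col9a1, Col9a2 and Col9a3. Col9a1 gave 660, 658, 740 and 644 RPM in P0 DMSO and 574, 674, 714 and 614 in P0 CompE, against 467, 651 and 753 in P6 DMSO and 464, 589 and 662 in P6 CompE. Col9a2 gave 1117, 1837, 2065 and 1974 RPM in P0 DMSO and 1734, 1908, 1981 and 1885 in P0 CompE, against 806, 964 and 884 in P6 DMSO and 883, 775 and 920 in P6 CompE. Col9a1 overlapped between all 4 groups, whereas every P6 value of Col9a2 lay below every P0 value. The Col9a1 to Col9a2 ratio of RPKM was 0.249 ± 0.0748 (SD, n = 4) in P0 DMSO, 0.209 ± 0.0103 (n = 4) in P0 CompE, 0.429 ± 0.0846 (n = 3) in P6 DMSO and 0.408 ± 0.0767 (n = 3) in P6 CompE.

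Type I collagen, the fibril of bone and fibrous tissue, was a minor product. Col1a2 had a mean RPKM of 2.93 and Col1a1 of 0.343, and Col1a1 reached at most 9.76 RPM in any library. The Col1a1 to Col1a2 ratio of RPKM ran from 0.0192 to 0.504 over the libraries. These values depend on the length used, since the annotated exons of Col1a2 cover 12426 bases and its longest transcript 5348. With the longest transcripts the mean RPKM was 6.81 for Col1a2 and 0.379 for Col1a1, and the ratio ran from 0.00915 to 0.240. The network chain Col10a1, a product of hypertrophic cartilage, did not meet the count rule.

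The interstitial chains varied widely between libraries of one group. Col1a2 gave 15.9, 6.78, 45.1 and 58.3 RPM in P0 DMSO, 10.9, 7.06, 20.96 and 39.4 in P0 CompE, 13.4, 8.86 and 104 in P6 DMSO, and 27.4, 26.2 and 125.5 in P6 CompE. Col3a1, whose product forms fibrils with type I collagen, gave 29.1, 10.4, 89.8 and 194 RPM in P0 DMSO and 28.9, 15.8, 48.1 and 105 in P0 CompE. Col6a1, a chain of the beaded filaments around cells, gave 9.76, 12.5 and 88.1 RPM in P6 DMSO and 11.3, 12.2 and 47.0 in P6 CompE. The highest library was replicate 4 in both P0 groups and replicate 3 in both P6 groups for each of these chains.

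The same held over more of the family. Replicate 3 was the highest library of both P6 groups for 27 of the 40 chains, and replicate 4 the highest of both P0 groups for 9 (Col1a1, Col1a2, Col3a1, Col5a2, Col6a1, Col6a2, Col6a3, Col8a2 and Col14a1). The share of all genes that were highest in the same libraries was not computed, so these counts are not a trait of the family. Replicate numbers mark batches in the labels at P6, while replicates 3 and 4 of P0 share a batch. Tbx18, a transcription factor of otic mesenchyme, was at 20.6 RPM in replicate 3 of both P6 groups and at 0.0834 to 5.61 in the other P6 libraries, and at 12.5 and 11.2 RPM in replicate 4 of P0 DMSO and P0 CompE against 0.515 to 7.72 in the other P0 libraries. Pou3f4, another such factor, was at 22.6 and 22.9 RPM in replicate 3 of P6 DMSO and P6 CompE and at 0.501 to 4.25 in the other P6 libraries. This was not particular to mesenchyme genes. The hair cell, glial, cartilage and bone, endothelial, macrophage and stria vascularis sums were also highest in replicate 3 of both P6 groups. The SC sum was lowest there, at 3523 RPM in P6 DMSO and 2390 in P6 CompE. At P0 the mesenchyme and fibrocyte list as a whole did not peak in replicate 4. Its sums in replicates 1 to 4 were 893, 1062, 984 and 902 RPM in P0 DMSO and 1314, 1325, 1148 and 1216 in P0 CompE, and Lum, which made up most of the sum, was lowest in replicate 4 of P0 DMSO at 688 RPM. The part of cells other than SCs in the collagen values was not tested.

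**Figure D2:**
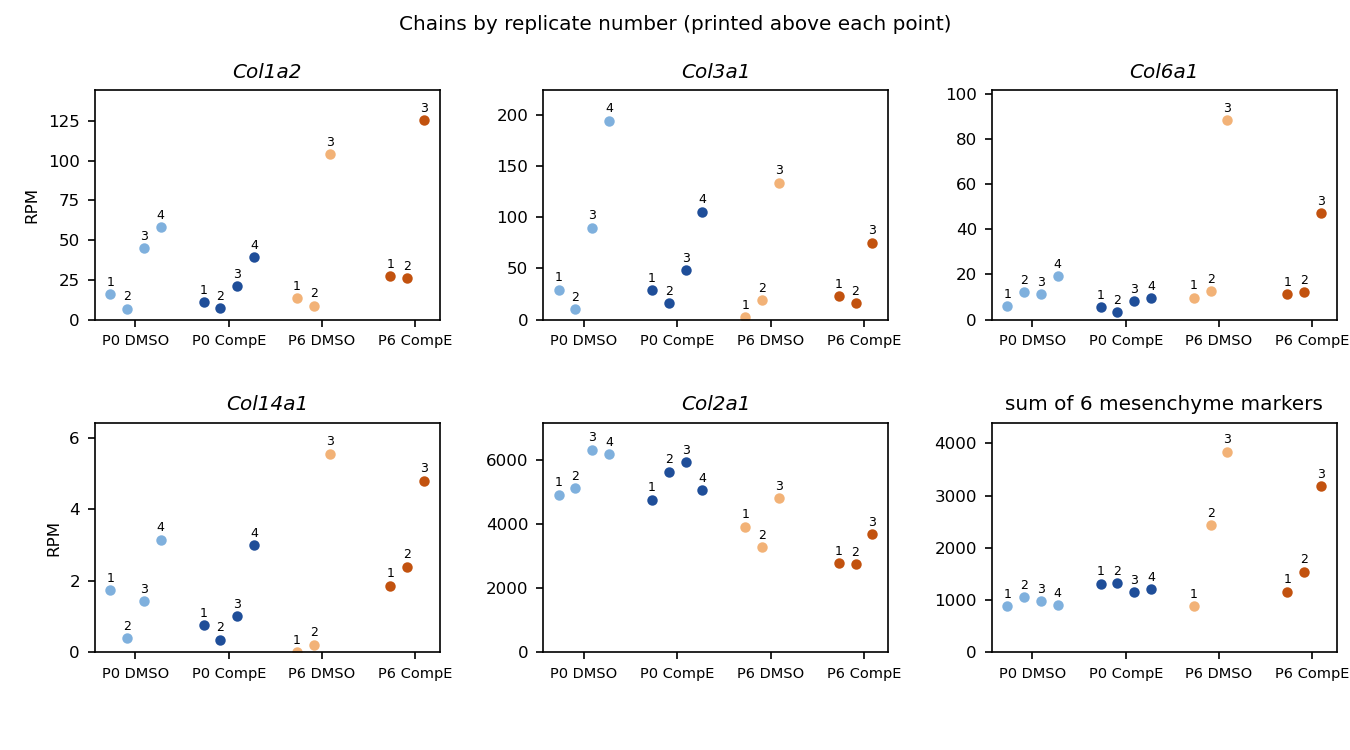
RPM of Col1a2, Col3a1, Col6a1, Col14a1 and Col2a1 and the summed RPM of 6 mesenchyme and fibrocyte marker genes, for each library by group, with the replicate number above each point. Replicate 4 at P0 and replicate 3 at P6 are the highest libraries for Col1a2, Col3a1, Col6a1 and Col14a1 in both treatments, and replicate 3 has the highest marker sums at P6, 3845 and 3186 RPM, whereas at P0 replicate 2 has the highest, 1062 and 1325 RPM.

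CompE changed a pair of chains at P0, both of them transmembrane collagens and in opposite directions. Col13a1 rose 6.59-fold and Col23a1 fell 5.64-fold, while none of the 11 fibrillar, 6 basement membrane or 9 FACIT chains was called. Calls required a 2-fold change or more together with an adjusted p (Benjamini-Hochberg, over all genes) no larger than 0.01 in edgeR's quasi-likelihood test. Of 15937 genes tested at P0, 1.22% were called, 0.238% as higher and 0.985% as lower, and of the 38 collagen chains tested 1 was called higher and 1 lower. The same 2 chains were called with the replicate pairs as a block, where 2.2% of genes were called. When 1 library was left out, the call of Col13a1 held in 8 of 8 fits and that of Col23a1 in 1 of 8. An unadjusted p under 0.05 was reached by 11 of the 38 chains and by 13.4% of genes. Over the 38 chains the median log2 fold change was -0.17, with 15 above 0 and 23 below, and over all genes it was 0.01. The RPM of the treatments did not overlap for 3 chains (Col13a1, Col23a1 and Col9a3) at P0, and for 9.88% of all genes tested.

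Collagen XIII is a transmembrane protein that gathers at cell adhesion sites and at the neuromuscular junction. Col13a1 (chromosome 10, 61838236 to 61979108, minus strand, GRCm38) gave 7.34, 8.56, 11.6 and 6.21 RPM in P0 DMSO and 49.9, 53.5, 68.4 and 57.4 in P0 CompE. At P6 it gave 45.8, 90.6 and 62.4 RPM in DMSO and 48.1, 56.7 and 45.5 in CompE. The P0 DMSO libraries stood apart from the other 10, and the P0 CompE libraries lay within the range of the P6 libraries. The log2 fold change at P0 was 2.72 ± 0.22 (SE, n = 4 and 4, adjusted p = 0.00027 in edgeR's quasi-likelihood test). Within replicate pairs the log2 ratio ran from 2.495 to 3.18, higher in 4 of 4. The call held without any 1 of the 8 libraries, with adjusted p of 0.0003 to 0.0021, and was lost without both libraries of replicate 4, when 1 gene in all was called. The 8 hair cell genes summed to 1049 to 1626 RPM in P0 CompE against 542 to 1102 in P0 DMSO. Myo6 made up most of both sums, with means of 862 and 499 RPM. Log2 fold changes were above 0 for 7 of the 8 hair cell genes and below 0 for 1. Of the 8 SC genes, Fabp7 fell by 3.38 on the log2 scale (edgeR adjusted p = 0.0014). With the replicate block, Lfng and Jag1 were also called lower, at -1.54 and -1.29 on the log2 scale, and the hair cell genes Atoh1 and Pou4f3 higher, at 1.94 and 1.13 (edgeR adjusted p of 0.0054, 0.0027, 0.00012 and 0.0061). Without the block, 6 of the 8 SC genes had log2 fold changes below 0 and 2 above. Mean RPM went from 1571 in P0 DMSO to 1771 in P0 CompE for Fgfr3, from 228 to 303 for Rorb and from 1405 to 1373 for S100a1. The part of these cells in the Col13a1 value was not tested.

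The promoter window of Col13a1, from 250 bases before to 50 bases from its annotated start, is shown because this chain had the largest change. RefSeq places it at chr10:61979059-61979358 on the minus strand of GRCm38, and capitals mark the transcribed bases.
Col13a1: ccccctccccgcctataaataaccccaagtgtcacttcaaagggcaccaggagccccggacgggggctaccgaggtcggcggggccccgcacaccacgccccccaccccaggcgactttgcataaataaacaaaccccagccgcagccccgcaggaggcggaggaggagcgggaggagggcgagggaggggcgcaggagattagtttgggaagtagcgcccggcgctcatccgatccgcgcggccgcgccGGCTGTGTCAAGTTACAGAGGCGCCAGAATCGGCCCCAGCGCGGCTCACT
It held neither the word GTGGGAA, the core bound by the Notch effector RBPJ, nor CAGNTG, an E-box, on either strand. GTGGGAA occurred in 6.38% of the 32851 mouse promoter windows of this length and CAGNTG in 51.4%. Among the 35 collagen symbols with a window, 2 held GTGGGAA (Col10a1 and Col4a5) and 17 held CAGNTG.

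At P6, Col13a1 had a log2 fold change of -0.40 ± 0.28 (SE, n = 3 and 3, edgeR adjusted p = 1.00), and the log2 ratio within replicate pairs ran from -0.66 to 0.07. The difference between the 2 ages in the response to CompE was -3.10 ± 0.37 on the log2 scale (SE, n = 14, edgeR adjusted p = 0.013), the smallest adjusted p of the family. It missed the threshold of 0.01, and edgeR called no gene for this difference (0.0% of 17090 genes). With the replicate pairs as a block it passed, at -3.08 ± 0.23 (SE, edgeR adjusted p = 0.0027), where 0.0936% of genes were called, and DESeq2 also called it, among 0.123% of genes. An unadjusted p under 0.05 was reached by 4 of 40 chains (Col13a1, Col9a3, Col27a1 and Col4a2) and by 4.75% of genes. The differences of the latter 3 were -0.60, -1.05 and 0.90 on the log2 scale (edgeR adjusted p of 0.67, 0.92 and 0.996).

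Col23a1 encodes collagen XXIII, a further transmembrane chain that is shed from the cell surface. It gave 6.09, 10.0, 14.1 and 17.98 RPM in P0 DMSO and 1.55, 2.68, 2.48 and 2.15 in P0 CompE. At P6 it gave 6.84, 0.576 and 4.63 RPM in DMSO and 2.94, 0 and 2.11 in CompE, where the 0 allows up to 0.104 RPM. All 4 P0 DMSO libraries lay above all 4 P0 CompE libraries, and the P6 groups overlapped. The log2 fold change at P0 was -2.495 ± 0.366 (SE, n = 4 and 4, edgeR adjusted p = 0.0048), and lower in 4 of 4 replicate pairs. The log2 fold change stayed between -2.73 and -2.24 when any 1 library was left out, but the call was lost, with edgeR adjusted p up to 0.026, without P0_CompE replicate 1, 2, 3 or 4 or P0_DMSO replicate 2, 3 or 4.

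Col25a1, the third transmembrane member, gave 4.20, 12.1, 11.5 and 12.1 RPM in P0 DMSO and 5.78, 5.61, 6.24 and 8.46 in P0 CompE. Its log2 fold change at P0 was -0.67 ± 0.34 (SE, edgeR adjusted p = 0.46). The groups overlapped through replicate 1 of DMSO.

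**Figure D3:**
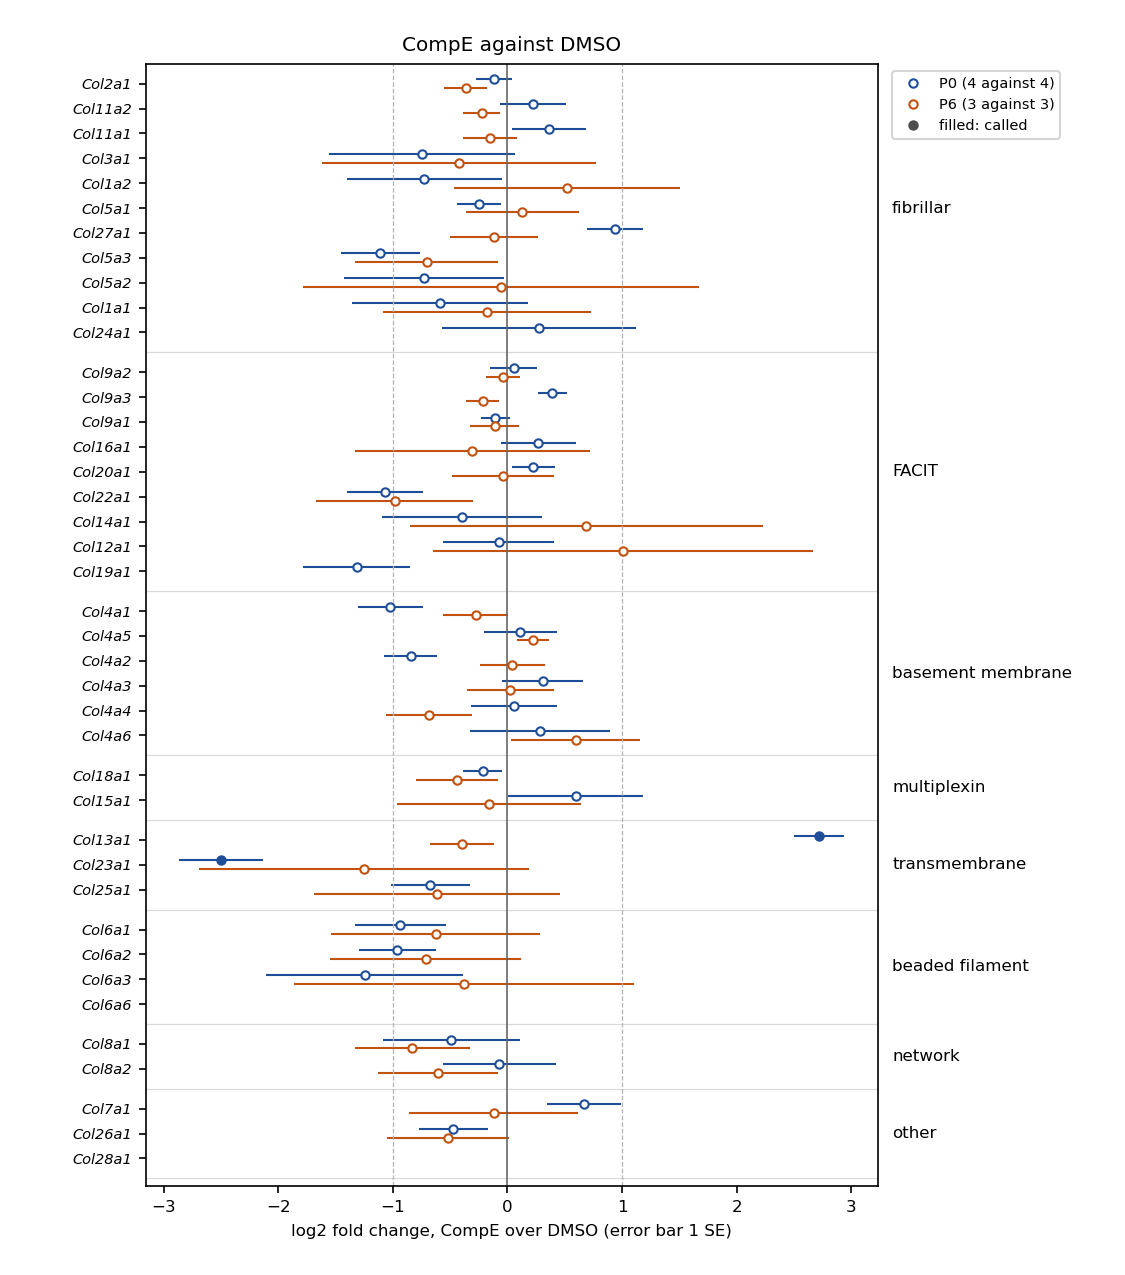
Log2 fold change of CompE over DMSO for each tested chain at P0 (38 chains) and P6 (36 chains), with bars of 1 SE, dashed lines at a 2-fold change and filled points for called chains. Only Col13a1 (2.72) and Col23a1 (-2.495) are filled, both at P0, and the bars at P6 are wider for many chains.

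Among basement membrane chains, Col4a1 and Col4a2 had log2 fold changes below 0 at P0 and the other 4 above 0. The Col4a1 and Col4a2 chains assemble with each other into the type IV collagen of most basement membranes, whereas Col4a5 assembles with Col4a3 and Col4a4 or with Col4a6. Col4a1 gave 232, 431, 433 and 581 RPM in P0 DMSO and 154, 244, 224 and 230 in P0 CompE. Col4a2 gave 131, 200.4, 167 and 277.2 RPM in P0 DMSO and 95.2, 132, 106 and 112 in P0 CompE. For both, 3 of the 4 DMSO libraries lay above all CompE libraries, and replicate 1 of DMSO lay among them. In that library the 8 SC genes summed to 6064 RPM, against 11160, 9949 and 10890 in P0 DMSO replicates 2 to 4. The P0 CompE libraries had 5503 to 6387 RPM. Lfng and Jag1 had the widest ranges of the 8 genes in P0 DMSO, at 1144 to 3677 and 1233 to 2839 RPM. In P0 CompE they were at 756 to 1139 and 793 to 970 RPM. Fgfr3 and S100a1 were at 1231 to 1881 and 1287 to 1613 RPM in P0 DMSO. Their ranges in P0 CompE were 1582 to 1864 and 1145 to 1569 RPM. The part of the difference in the SC sum in the collagen values was not tested. The 5 endothelial genes were near 0 in both P0 groups, with sums of 1.43 to 5.36 RPM in DMSO and 1.76 to 4.67 in CompE.

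The log2 fold changes at P0 were -1.02 ± 0.28 for Col4a1 (SE, edgeR adjusted p = 0.090) and -0.84 ± 0.23 for Col4a2 (SE, edgeR adjusted p = 0.091), and both chains were lower in 4 of 4 replicate pairs. Neither was called. DESeq2 called Col4a1 as lower, where 1.71% of genes were called, and so did edgeR without P0_DMSO replicate 1, at -1.24 on the log2 scale with an adjusted p of 0.0085. With the replicate block the edgeR adjusted p values were 0.0033 for Col4a1 and 0.013 for Col4a2, with log2 fold changes of -0.96 and -0.80, short of a 2-fold change.

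Col4a5 gave 68.2, 135, 148 and 148 RPM in P0 DMSO and 79.7, 183, 166 and 127 in P0 CompE, which overlapped, with a log2 fold change of 0.11 ± 0.32 (SE, edgeR adjusted p = 0.94). Per length, the Col4a5 to Col4a1 ratio was 0.335 ± 0.0410 (SD, n = 4) in P0 DMSO, 0.712 ± 0.136 (n = 4) in P0 CompE, 1.33 ± 0.0181 (n = 3) in P6 DMSO and 2.08 ± 0.825 (n = 3) in P6 CompE. The 2 P0 groups did not overlap in this ratio, with 0.283 to 0.381 in DMSO and 0.576 to 0.835 in CompE. The ratio was not among those planned, and neither of its chains was called. How often other pairs of genes separate in this way was not computed. Col4a3, Col4a4 and Col4a6 had log2 fold changes of 0.31, 0.05 and 0.29 with adjusted p from 0.82 to 0.98 at P0 in the edgeR fit.

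The promoter windows of Col4a1 and Col4a2 are shown because the genes lie head to head and had fold changes in one direction, and that of Col4a5 because it is the tested member whose window held GTGGGAA. RefSeq places them at chr8:11312777-11313076 (minus strand), chr8:11312555-11312854 (plus strand) and chrX:141475169-141475468 (plus strand) of GRCm38. Capitals mark in the first 2 the 78 bases that both windows cover, on opposite strands, and in the third a CAGNTG word on the minus strand and GTGGGAA at base 169.
Col4a1: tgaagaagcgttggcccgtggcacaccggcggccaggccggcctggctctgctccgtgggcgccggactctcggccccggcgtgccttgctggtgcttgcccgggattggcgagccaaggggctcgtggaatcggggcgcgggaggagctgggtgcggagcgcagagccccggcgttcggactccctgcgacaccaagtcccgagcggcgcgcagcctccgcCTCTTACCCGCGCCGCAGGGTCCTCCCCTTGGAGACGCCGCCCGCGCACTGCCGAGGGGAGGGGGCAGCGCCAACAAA
Col4a2: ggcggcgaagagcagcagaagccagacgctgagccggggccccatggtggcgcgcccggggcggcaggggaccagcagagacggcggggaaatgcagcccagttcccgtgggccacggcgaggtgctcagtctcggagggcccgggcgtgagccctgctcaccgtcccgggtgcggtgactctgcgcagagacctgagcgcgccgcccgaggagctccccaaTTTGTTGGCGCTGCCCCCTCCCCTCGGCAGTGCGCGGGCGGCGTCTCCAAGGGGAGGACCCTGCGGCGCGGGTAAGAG
Col4a5: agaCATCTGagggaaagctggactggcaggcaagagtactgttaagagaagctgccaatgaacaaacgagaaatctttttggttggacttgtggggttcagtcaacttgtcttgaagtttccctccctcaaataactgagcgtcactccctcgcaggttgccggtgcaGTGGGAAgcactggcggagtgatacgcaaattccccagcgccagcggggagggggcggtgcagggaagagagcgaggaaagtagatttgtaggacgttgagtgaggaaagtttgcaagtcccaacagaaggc
Neither word occurred in the windows of Col4a1 and Col4a2. By annotation their exons overlap by 22 bases on opposite strands, and strand use in the counting is not given in the sources used here, so reads there cannot be told apart.

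The fibrillar chain Col27a1, a thin-fibril collagen of cartilage, gave 14.3, 13.8, 20.4 and 14.7 RPM in P0 DMSO and 41.2, 17.7, 37.7 and 28.8 in P0 CompE. In 3 of the 4 CompE libraries it was above all DMSO libraries. Its log2 fold change of 0.94 ± 0.24 (SE, n = 4 and 4, edgeR adjusted p = 0.072) was not called, and it was higher in 4 of 4 pairs, by 0.33 to 1.501 on the log2 scale. The 10 cartilage and bone genes summed to 17.0 to 52.2 RPM in P0 DMSO and 66.6 to 87.8 in P0 CompE. Matn1, a cartilage matrix gene, rose by 2.59 on the log2 scale (edgeR adjusted p = 0.0048). From DMSO to CompE, mean RPM went from 6.13 to 37.4 for Matn1 and from 34.4 to 42.9 for Lect1. The other genes of the list had P0 means of at most 0.889 RPM (Runx2 in P0 CompE). The part of cartilage cells in the Col27a1 value was not tested. Col5a3, a regulator of fibril assembly, had the largest change among fibrillar chains at -1.11 ± 0.34 (SE, edgeR adjusted p = 0.14). It gave 4.28, 7.56, 7.56 and 13.1 RPM in P0 DMSO and 3.65, 4.28, 4.84 and 2.84 in P0 CompE, which overlapped narrowly.

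The main fibril chains had small differences at P0. Col2a1 had a log2 fold change of -0.12 ± 0.16, Col11a2 of 0.22 ± 0.29 and Col11a1 of 0.36 ± 0.32 (SE, edgeR adjusted p from 0.75 to 0.86). Col9a1 and Col9a2 had log2 fold changes of -0.11 ± 0.13 and 0.05 ± 0.21 (SE, edgeR adjusted p of 0.83 and 0.96). Col9a3 gave 552, 623, 720 and 603 RPM in P0 DMSO and 922, 832, 836 and 795 in P0 CompE. The groups did not overlap, and the difference of 0.39 ± 0.13 on the log2 scale (SE, edgeR adjusted p = 0.16) was not called.

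Of the 6 FACITs outside type IX, 4 had log2 fold changes below 0 at P0. The largest change of the class was that of Col19a1, with 0.870, 0.325, 0.762 and 0.723 RPM in P0 DMSO and 0.405, 0.258, 0.292 and 0.126 in P0 CompE, at -1.31 ± 0.47 on the log2 scale (SE, edgeR adjusted p = 0.22). Col22a1, a FACIT of tissue junctions, gave 11.4, 22.6, 18.2 and 29.1 RPM in P0 DMSO and 6.60, 12.5, 12.9 and 8.11 in P0 CompE, at -1.07 ± 0.33 (SE, edgeR adjusted p = 0.14). Both overlapped between treatments through 1 DMSO library.

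The 3 type VI chains tested were below 0 at P0, with log2 fold changes of -0.93 for Col6a1, -0.96 for Col6a2 and -1.24 for Col6a3 (edgeR adjusted p of 0.34, 0.21 and 0.64). Col6a3 gave 0.984, 1.43, 4.06 and 17.2 RPM in P0 DMSO and 1.40, 1.13, 2.48 and 5.21 in P0 CompE. Its change rested on replicate 4 of DMSO, without which the log2 fold change was 0.19. Among multiplexins, which carry antiangiogenic fragments at their ends, Col15a1 had the larger change at 0.60 ± 0.59 (SE, edgeR adjusted p = 0.78), with 0.946, 0.951, 5.46 and 4.14 RPM in P0 DMSO and 2.34, 4.58, 5.28 and 5.75 in P0 CompE. Col18a1 gave 431 to 660 RPM in P0 DMSO and 464 to 559 in P0 CompE, with a log2 fold change of -0.22 ± 0.17 (SE, edgeR adjusted p = 0.69).

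Col7a1, the anchoring fibril chain of skin, gave 48.2, 35.9, 34.0 and 47.8 RPM in P0 DMSO and 135, 42.1, 45.4 and 52.5 in P0 CompE. Replicate 1 of CompE stood apart from the other 7 libraries. The log2 fold change was 0.67 ± 0.32 (SE, edgeR adjusted p = 0.42), and 0.16 without that library.

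At P6 no collagen chain was called by edgeR, in 36 tested, and no gene was called at all (0.0% of 15322). At an unadjusted p under 0.05 edgeR had 289 genes (1.89%) and none of the 36 chains. DESeq2 called 13 genes (0.0545%), none of them a collagen, and edgeR with the replicate block called none. The median log2 fold change of the 36 chains was -0.22, with 8 above 0 and 28 below, against 0.00 for all genes. Treatments did not overlap for 1 chain, Col11a2 (-0.23 ± 0.16, SE, edgeR adjusted p = 1.00), and for 7.19% of genes. The spread between P6 replicates was larger than at P0, with a biological coefficient of variation of 46.7% against 27.2%.

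Between ages, 6 chains differed in DMSO SCs. Compared with P0, P6 libraries had more Col13a1 and Col8a1 and less Col7a1, Col4a1, Col4a2 and Col27a1. Of 17090 genes tested, 7.12% were called in DMSO, 3.74% higher and 3.38% lower, and of the 40 chains 2 were higher and 4 lower. DESeq2 called these 6 and Col5a1, among 7.41% of genes. The median log2 difference of the 40 chains was -0.52, with 12 above 0 and 28 below, and that of all genes was -0.05. The RPM of the ages did not overlap for 12 chains and for 31.1% of genes. Since each batch held 1 age, age and batch cannot be told apart. The P0 DMSO libraries also enter the treatment comparison at P0. Of the 8 SC genes, Sox2 and Jag1 were called lower and Rorb higher at P6 in DMSO, and of the 8 hair cell genes Atoh1 lower and Tmc1 higher, and their part in the collagen values was not tested.

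Col13a1 was 8.27-fold higher at P6 in DMSO, a log2 difference of 3.05 ± 0.27 (SE, n = 3 and 4, edgeR adjusted p = 5.1e-06), and this was called without any 1 of the 14 libraries. Col8a1, a short-chain network collagen, gave 3.22, 1.20, 8.26 and 4.77 RPM in P0 DMSO and 54.3, 14.1 and 18.6 in P6 DMSO, and in CompE 1.24, 1.96, 4.29 and 5.21 at P0 and 14.7, 12.8 and 21.2 at P6. All P6 libraries lay above all P0 libraries. The log2 difference was 2.79 ± 0.63 in DMSO (SE, edgeR adjusted p = 0.0066). In CompE it was 2.46 ± 0.63 (SE, edgeR adjusted p = 0.013), which was not called.

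Col7a1 gave 2.21, 2.41 and 4.90 RPM in P6 DMSO and 0.676, 4.42 and 3.46 in P6 CompE, all far below the 34.0 to 135 RPM of the P0 libraries. It was 12.3-fold lower at P6 in DMSO, at -3.62 ± 0.56 on the log2 scale (SE, edgeR adjusted p = 0.00058), and 21.2-fold lower in CompE, at -4.41 ± 0.58 (SE, edgeR adjusted p = 0.0002). Both calls held without any 1 of the 14 libraries.

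Col4a1 gave 129, 100 and 136 RPM in P6 DMSO and 60.2, 102.5 and 136 in P6 CompE. Col4a2 gave 72.5, 49.8 and 98.6 RPM in P6 DMSO and 74.3, 51.9 and 99.7 in P6 CompE. Both lay below all P0 DMSO libraries at P6, whereas Col4a2 of P6 CompE overlapped P0 CompE. In DMSO the log2 differences were -1.73 ± 0.32 for Col4a1 (SE, edgeR adjusted p = 0.0021) and -1.35 ± 0.28 for Col4a2 (SE, edgeR adjusted p = 0.0044). In CompE they were -0.97 ± 0.32 and -0.45 ± 0.28 (SE, edgeR adjusted p of 0.041 and 0.26), neither called. Col4a5 had differences of 0.28 ± 0.30 in DMSO and 0.40 ± 0.30 in CompE (SE, edgeR adjusted p of 0.54 and 0.36).

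Col27a1 gave 4.59, 5.26 and 8.69 RPM in P6 DMSO and 4.46, 4.95 and 7.503 in P6 CompE, below every P0 library. The log2 difference from P0 was -1.29 ± 0.30 in DMSO (SE, edgeR adjusted p = 0.0082) and -2.34 ± 0.32 in CompE (SE, edgeR adjusted p = 0.00023). The call in DMSO was lost in 9 of the 14 fits without 1 library.

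Several age calls in DMSO depended on single libraries. Without P0_DMSO replicate 2, P0_DMSO replicate 4 or P6_DMSO replicate 1, the 3 chains Col13a1, Col4a1 and Col7a1 stayed called, and without P6_DMSO replicate 2 the 3 were Col13a1, Col7a1 and Col8a1. Without both libraries of P0 replicate 4, Col13a1 and Col7a1 were called. With the 7 DMSO libraries fitted alone, Col13a1, Col4a1 and Col7a1 were called.

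In CompE, 6.43% of genes were called between ages, 3.54% higher and 2.89% lower, and 2 of 40 chains, Col7a1 and Col27a1, both lower. DESeq2 called 5 chains (Col11a1, Col27a1, Col7a1, Col8a1 and Col9a2), among 6.89% of genes. The RPM of the ages did not overlap for 16 chains and for 38.2% of genes. Col13a1 had a difference of -0.06 ± 0.26 on the log2 scale (SE, edgeR adjusted p = 0.90). Col9a2 fell just short of a 2-fold change, at -0.997 ± 0.20 in CompE and -0.92 ± 0.20 in DMSO (SE, edgeR adjusted p of 0.0038 and 0.0060). Col9a3 gave 442, 494 and 486 RPM in P6 DMSO and 408, 353 and 459 in P6 CompE, with differences of -0.33 ± 0.13 in DMSO and -0.92 ± 0.13 in CompE (SE, edgeR adjusted p of 0.087 and 0.00035).

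**Figure D4:**
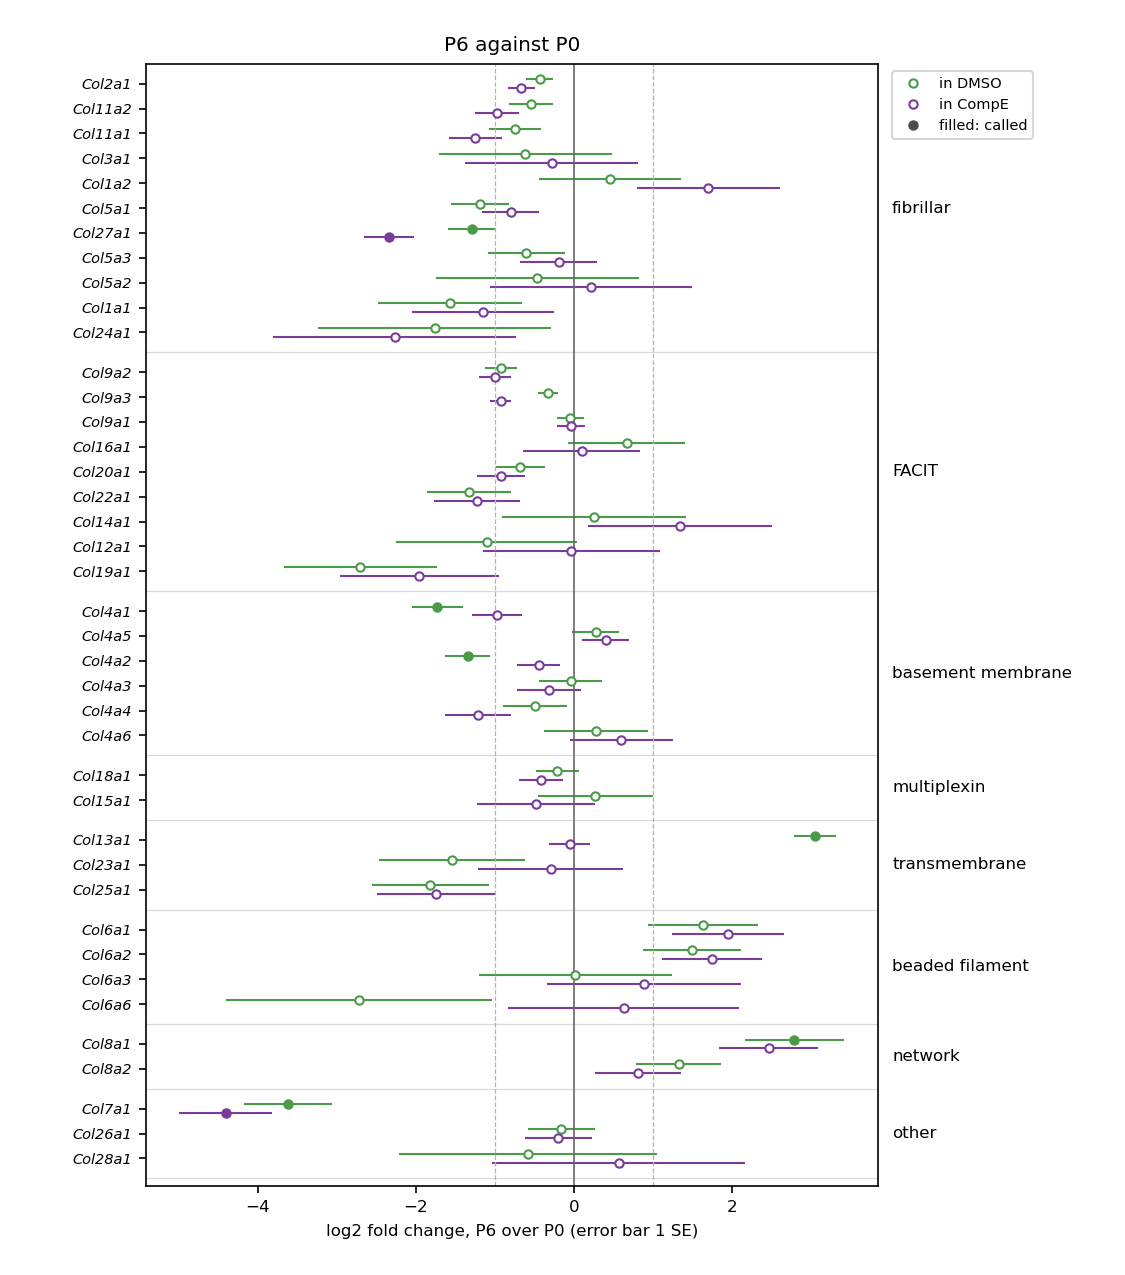
Log2 difference of P6 over P0 for each of the 40 chains, in DMSO and in CompE libraries, with bars of 1 SE, dashed lines at a 2-fold change and filled points for called chains. Col13a1 is filled in DMSO at 3.05 and lies at -0.06 in CompE, and Col7a1 and Col27a1 are filled in both.

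**Figure D5:**
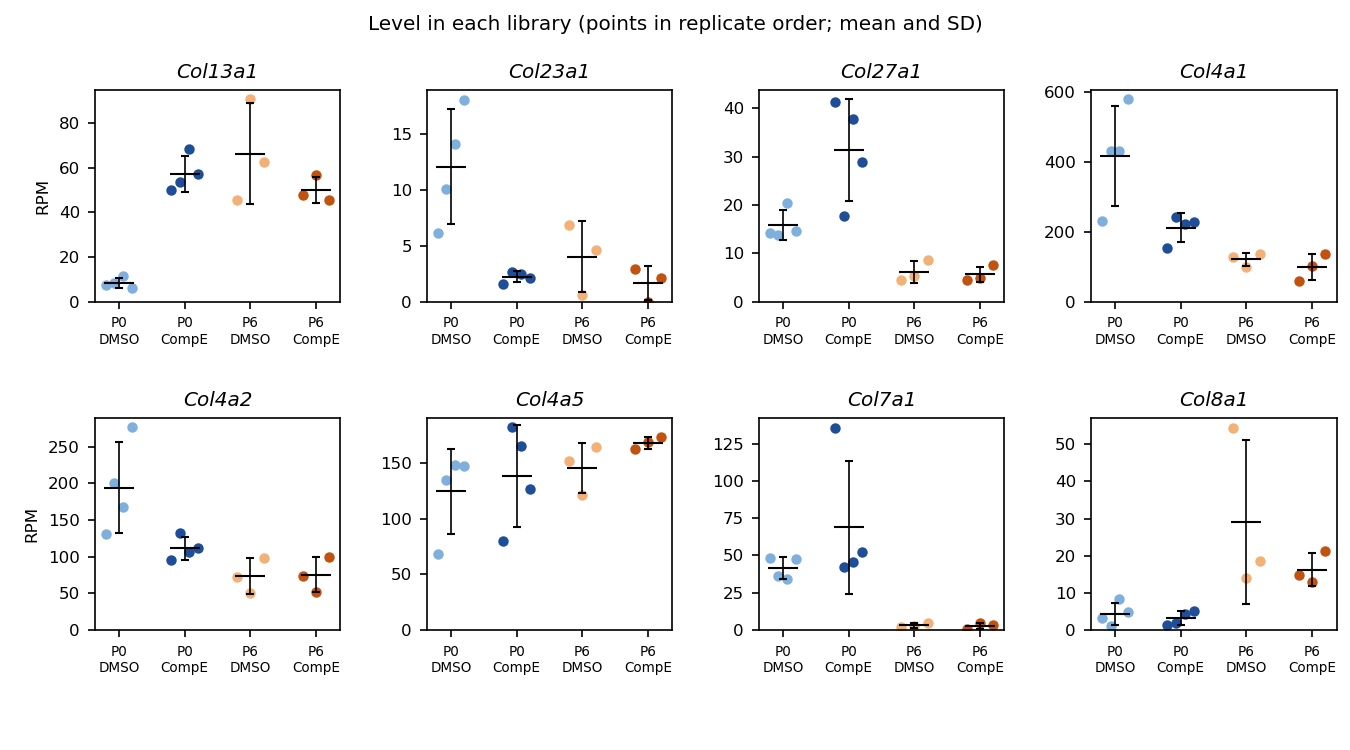
RPM in each library of 8 chains by age and treatment, with points in replicate order and the mean and SD of each group in black. Col13a1 is low in P0 DMSO (6.21 to 11.6 RPM) and between 45.5 and 90.6 RPM in all other libraries, and Col7a1 is below 5 RPM in all P6 libraries.

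The order of the fibrillar and FACIT classes depended on the scale. Per length of annotated exons, the FACITs had the higher sum in P0 CompE (959 against 783 RPKM), P0 DMSO (866.5 against 783.5) and P6 CompE (500.2 against 430). The fibrillar chains had it in P6 DMSO (545 against 537). With the longest transcripts, mean RPKM over the 14 libraries went from 504 to 913 for Col2a1 and from 455 to 482 for Col9a2. Those lengths raise the fibrillar sum more than the FACIT sum, so this order is that for annotated exons only. In RPM, which does not divide by length, the fibrillar chains had the higher sum in every group. Fibrillar chains summed to 7115 ± 1246 RPM (SD, n = 4) in P0 DMSO, 7102 ± 863 (n = 4) in P0 CompE, 4944 ± 1024 (n = 3) in P6 DMSO and 3911 ± 747 (n = 3) in P6 CompE. FACIT chains summed to 3094 ± 519, 3407 ± 138, 2017 ± 240 and 1867 ± 194 RPM in the same groups. Every P6 library was below every P0 library of its treatment in the FACIT sum, with maxima of 2179 RPM in P6 DMSO and 2090 in P6 CompE against minima of 2361 and 3261 at P0.

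Basement membrane chains summed to 773 ± 242 RPM (SD, n = 4) in P0 DMSO, 504 ± 108 (n = 4) in P0 CompE, 371 ± 58.6 (n = 3) in P6 DMSO and 372 ± 61.7 (n = 3) in P6 CompE. The 2 treatments overlapped at P0, at 450 to 1037 and 354 to 602 RPM. Transmembrane chains summed to 30.5 ± 9.02, 66.0 ± 8.61, 73.1 ± 17.2 and 53.6 ± 4.01 RPM in the same groups, and P0 DMSO, at 17.6 to 37.2 RPM, lay below all others. Multiplexins summed to 571 ± 97.6, 509 ± 45.6, 474 ± 154 and 349 ± 154 RPM. Network chains summed to at most 10.3 RPM in any P0 library and to 16.5 to 62.0 in the P6 libraries. Within the transmembrane sum, Col13a1 had a mean of 8.43 RPM in P0 DMSO and 50.1 to 66.3 in the other groups. Col23a1 and Col25a1 went the other way. Their means were 12.0 and 9.99 RPM in P0 DMSO and at most 4.02 and 6.52 in the other groups. The class sums are given as levels, without a test.

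Enzymes that fold and modify collagen chains, those that trim and crosslink them, collagen receptors, and laminins and other partners of the basement membrane were read beside the chains. Over all genes at P0, 1.22% were called (2.2% with the replicate block), 51.1% had log2 fold changes above 0 and the median was 0.01. At P0, none of 19 folding genes was called (4 above 0, 15 below, median log2 fold change -0.18). Of 14 processing genes tested, Adamts3, a procollagen N-propeptidase, fell by 1.74 ± 0.25 on the log2 scale (SE, edgeR adjusted p = 0.0047) and the other 13 were not called. With the replicate block Pcolce2, an enhancer of procollagen C-propeptide removal, was also called, as higher, at 1.016 ± 0.115 on the log2 scale (SE, edgeR adjusted p = 0.0016), against 0.997 ± 0.14 without it (SE, edgeR adjusted p = 0.0042). Of 11 receptors tested, Adgrg6, an adhesion receptor that binds type IV collagen, fell by 1.83 ± 0.23 (SE, edgeR adjusted p = 0.0023), and the other 10 were not called. With the block the inhibitory collagen receptor Lair1 was called too, at -1.78 ± 0.20 (SE, edgeR adjusted p = 0.0016), against -1.76 ± 0.31 without it (SE, edgeR adjusted p = 0.013). None of 16 basement membrane partners was called, with 3 above 0 and 13 below and a median of -0.44, but with the block the laminin chain Lama1 was called lower, at -2.09 ± 0.24 (SE, edgeR adjusted p = 0.0018), against -2.20 ± 0.39 without it (SE, edgeR adjusted p = 0.013). At P6 no gene of the 4 lists was called by edgeR, in 19, 13, 11 and 16 tested.

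Against 7.12% of all genes called between ages in DMSO and 6.43% in CompE, folding genes had 0 calls of 19 in DMSO and 1 of 19 in CompE, where P4ha3, a prolyl 4-hydroxylase subunit, fell by 1.46 ± 0.32 on the log2 scale (SE, edgeR adjusted p = 0.0062). Of 15 processing genes, Pcolce2 rose by 2.81 ± 0.19 on the log2 scale in DMSO and 1.33 ± 0.19 in CompE (SE, edgeR adjusted p of 5.3e-07 and 0.00029). Adamts14, a further N-propeptidase, fell by 1.56 ± 0.31 and 2.26 ± 0.32 (SE, edgeR adjusted p of 0.0029 and 0.00032), and Adamts3 rose by 1.53 ± 0.33 in CompE (SE, edgeR adjusted p = 0.0052). No receptor of 11 was called in either. Of 16 basement membrane partners, Lama2 and Pxdn, the peroxidase that crosslinks type IV collagen, fell by 2.73 ± 0.44 and 1.55 ± 0.34 in DMSO (SE, edgeR adjusted p of 0.00073 and 0.0059), and none was called in CompE.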

How the data were processed

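Raw whole-number read counts per gene symbol were used as deposited by the authors, who made SMART-Seq v4 PLUS libraries from sorted cells, trimmed reads with Trim Galore 0.6.0 and cutadapt 1.15, and aligned them with STAR (2.7.0f in the submitters' processing notes) to mouse GRCm38. The annotation release and strand use are not given in the sources used here, and reads carried no molecular identifiers. All 14 libraries (19415066 to 44430063 counts) and all 35976 symbols entered. No replicates agreed within sampling noise (at least 20.5 chi-square per degree of freedom).

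RPM and RPKM were computed with Python 3.11.15 from these counts, with exon unions from GENCODE M21, which matched all 40 chains, 8 of them with exon overlap on the opposite strand. Tests were edgeR 4.0.16 quasi-likelihood fits in R 4.3.3 (TMM, filterByExpr with a minimum count of 10), P0 and P6 each alone, and the age comparisons and the interaction over all 14 libraries. The SE is the log2 fold change over the root of F. P-values were adjusted by Benjamini-Hochberg over all genes tested. DESeq2 1.42.0 was an alternative, beside other normalization, filters, thresholds, blocks and left-out libraries. On simulated counts with 200 changed genes, the edgeR fit recovered 94% at P0 (15937 genes) and 52% at P6 (15322 genes). It recovered 57.5% for the interaction and 81.5% for age in DMSO (17090 genes each). How recovery varies with the size of a fold change or with the level of a gene was not tested. Recovery at the 2-fold threshold itself, or for chains with few counts, was not tested either.

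Groups and replicate numbers come from the sample titles. Both treatments of a replicate number share a batch in the labels, and the numbers were used to pair the samples. Replicates 3 and 4 of P0 share a batch, so there the batch does not set which libraries pair. Within pairs, deviations from group means correlated at 0.500, 0.245, 0.360 and 0.162 for P0 replicates 1 to 4. For P6 replicates 1 to 3 the correlations were 0.264, 0.326 and 0.620. Libraries of unlike numbers were not compared in this way. Each library pooled organs, and p-values measure the spread between these libraries. Members and gene lists were chosen with earlier results of these data known. Values per library were given for chains called in any comparison, for the 5 of highest mean RPKM and for the largest change of each class at P0. The values of Col1a1, Col1a2, Col3a1, Col6a1, Col18a1, Col22a1, Col25a1 and Col4a5 were added after they were seen. Promoter windows are those of RefSeq on GRCm38.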

Additional observations from a re-analysis of the deposited data

Results flagged for a closer look

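Among 80 groups of 4 P0 libraries (40 chains in both treatments), 5 held a library that stood apart by Dixon's test, and chance gives about 1 in 20. In P0_DMSO replicate 1, Col4a5 was at 68.2 RPM, with the next library at 134.8, and Col25a1 at 4.2 RPM, with the next at 11.5. In P0_DMSO replicate 3, Col9a1 was at 740.2 RPM, with the next library at 659.5, and Col27a1 at 20.45 RPM, with the next at 14.7. In P0_CompE replicate 1, Col7a1 was at 135.3 RPM, with the next library at 52.5.

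The response of Col13a1 to CompE differed between ages by -3.10 on the log2 scale in the interaction test of edgeR (adjusted p = 0.013, under 0.05 and not under 0.01).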

How the results depend on the processing

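At P0, 2 chains were called, and the count was 1 with all 14 libraries in one fit and 0 to 3 when libraries were left out. It was 1 (Col13a1) without any one of P0_CompE replicates 1 to 4 or P0_DMSO replicates 2 to 4, 3 (with Col4a1) without P0_DMSO replicate 1, and 0 without both libraries of replicate 4. At P6 it was 0 in every alternative. For the interaction no chain was called, and 1 (Col13a1) was called when adjusted p alone was asked to be at most 0.05, with DESeq2, with no filter and with the replicate block, and 0 to 1 when libraries were left out (1 without P0_DMSO replicate 3 or P6_DMSO replicate 1). The replicate block kept the 2 calls at P0 and the 0 at P6, and changed no other call of a chain. In the gene lists at P0 it added calls of Pcolce2, Lair1, Lama1, Lfng, Jag1, Atoh1 and Pou4f3 and ended none.

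Between ages in DMSO, 6 chains were called, 3 with the 7 DMSO libraries alone and 2 to 8 when libraries were left out, with 2 without both libraries of P0 replicate 4 and 8 without both of P6 replicate 3, alternatives chosen after seeing the data. In CompE, 2 were called, 10 when adjusted p alone was asked to be at most 0.05, 5 with DESeq2, 4 with no filter and 2 to 4 when libraries were left out (4 without P0_CompE replicate 1).

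Signs turned only among log2 fold changes that were not called, as libraries were left out. At P0 these ran from -0.0090 to 0.42 for Col11a2, -1.87 to 0.19 for Col6a3, -0.84 to 0.055 for Col8a1 and -0.13 to 0.16 for Col9a2, and between ages in CompE from -0.20 to 0.045 for Col13a1. The causes were not tested. Lengths from the longest transcript moved 48 of 160 group mean levels by more than 1 SD, and TMM library sizes 2 of 160. Chains with few counts limit precision, and 9 chains had 0 counts in at least 1 library.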
